A study of Mus musculus with 6 samples.

Results

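Neutrophil transcripts were followed here through 10 genes of whole mouse lung: the granule genes Camp, Ngp and Ltf, the surface marker gene Ly6g, and the genes Retnlg, Stfa2l1, Csf3r, Fpr1, Fpr2 and Hdc of mature neutrophils. They were taken by name from the 40842 reference genes that each library's table holds, and 10 of 10 were found. The data are polyA RNA sequencing of 3 control and 3 irradiated libraries, all from female wild-type C57BL/6N mice and all labelled with the time point of 100 days. The irradiated mice had received 20 Gy of 9 MeV electrons in 1 dose and the control mice had no treatment. The labels name neither the exposed part of the body nor the age of the mice. They also do not state that the libraries of a group came from separate animals, and p-values therefore cover only library-to-library spread, part of which may be technical. The series is about the exchange between IL-17-producing γδ T cells and neutrophils in radiation pneumonitis, the lung inflammation that follows exposure.

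Neutrophils are made in the bone marrow and change their transcripts as they ripen. Dividing and early post-mitotic precursors transcribe the proteins of the granules and largely stop before they leave the marrow, so that Camp (the cathelicidin antimicrobial peptide), Ngp (a neutrophil granule protein related to cathelicidins and cystatins) and Ltf (the iron-binding lactoferrin) mark immature cells. Circulating and tissue neutrophils instead carry transcripts of receptors and secreted proteins. Csf3r is the receptor for the growth factor G-CSF, and Fpr1 and Fpr2 are formyl peptide receptors that guide neutrophils towards bacterial and mitochondrial peptides. Retnlg is a resistin-like secreted protein of myeloid cells, Stfa2l1 is a stefin (an inhibitor of cysteine proteases), and Hdc makes histamine. Ly6g, the surface protein by which mouse neutrophils are usually identified, appears during ripening and stays on the mature cell, so it was kept apart from both groups. Ltf is also made by glandular and airway epithelium, Hdc by mast cells and basophils, and Fpr1, Fpr2 and Csf3r by monocytes.

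The stretches of 250 bases before the start of the 3 granule genes and of Retnlg are shown because Camp, Ngp and Ltf are counted as 1 ripening stage, which C/EBP transcription factors, in particular C/EBPε, are known to serve. The sequences are those of RefSeq in build GRCm38.p6 and read 5′ to 3′ on the gene's strand. Capitals mark matches on either strand to TTGCNNAA, a core of C/EBP sites. In that build they lie at chr9:109849457-109849706 on the minus strand (Camp), chr9:110419558-110419807 on the plus strand (Ngp), chr9:111019042-111019291 on the plus strand (Ltf) and chr16:48872358-48872607 on the plus strand (Retnlg).
Camp: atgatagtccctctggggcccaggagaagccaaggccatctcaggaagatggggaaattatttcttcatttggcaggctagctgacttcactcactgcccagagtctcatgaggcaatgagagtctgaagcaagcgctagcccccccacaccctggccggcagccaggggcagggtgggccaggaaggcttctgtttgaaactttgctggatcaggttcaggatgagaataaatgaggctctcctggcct
Ngp: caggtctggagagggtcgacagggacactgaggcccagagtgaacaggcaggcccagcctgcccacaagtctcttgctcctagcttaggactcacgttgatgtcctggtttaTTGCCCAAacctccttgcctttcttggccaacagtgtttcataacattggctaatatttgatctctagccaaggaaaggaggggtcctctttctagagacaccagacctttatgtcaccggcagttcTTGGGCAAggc
Ltf: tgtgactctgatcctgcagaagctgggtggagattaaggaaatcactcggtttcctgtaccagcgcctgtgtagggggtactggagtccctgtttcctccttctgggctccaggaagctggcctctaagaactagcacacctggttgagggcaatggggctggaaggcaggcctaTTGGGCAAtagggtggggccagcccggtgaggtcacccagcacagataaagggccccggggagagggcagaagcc
Retnlg: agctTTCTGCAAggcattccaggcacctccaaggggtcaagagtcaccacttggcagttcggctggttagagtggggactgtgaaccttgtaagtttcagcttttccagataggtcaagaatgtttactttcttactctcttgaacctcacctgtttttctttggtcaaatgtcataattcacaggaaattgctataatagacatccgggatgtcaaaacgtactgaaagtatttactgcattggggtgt

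Ngp held 2 matches, TTGCCCAA beginning 138 bases before the start and TTGGGCAA, its reverse complement, beginning 11 bases before. Ltf held the same TTGGGCAA beginning 75 bases before the start, and Retnlg held TTCTGCAA beginning 246 bases before. The window of Camp held no match to these letters. Among the members a match was found in 4 of 10 genes (Ngp, Ltf, Retnlg and Ly6g), and among all 32851 promoter windows of the same length in 9.56%. The core GAGGAA of PU.1 sites was found on either strand in 5 of 10 members (Ltf, Stfa2l1, Csf3r, Fpr2 and Ly6g) and in 23.3% of all windows. No match of one motif overlapped a match of the other. A match is a description of these letters, not a binding site.

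The depth implied by the deposited values ranged from 5.105 to 10.4 Gb of aligned sequence per library, with irradiated 2 the deepest. Alveolar and airway genes were abundant in every library. Of 8 lung markers, not all of them alveolar or airway genes, 7 were lower on average after irradiation. Among the 8, 0 were called in limma and 3 had an unadjusted p under 0.05, with a median log2 change of −0.19. Over the 13908 genes tested, 6147 had positive changes and the median was −0.03. The surfactant gene Sftpc was at 14677 to 16828 FPKM (read abundance corrected for gene length and library size) in the controls and 8741 to 9588 FPKM in the irradiated libraries (log2 change −0.77, limma adjusted p = 0.0793). The club cell gene Scgb1a1 (−0.83, adjusted p = 0.164) and the surfactant gene Sftpb (−0.36, adjusted p = 0.202) also lay below all controls in the irradiated libraries. The part of these shifts in the neutrophil values was not tested. Libraries that stand apart touch the results. Irradiated 2 had the highest level of each of 8 red cell genes, and control 2 had the highest level of 5 of 8 airway secretory genes. Their values are given beside the results they move with, and each main count was also made without both.

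The 10 genes were higher on average in irradiated lung on the log2(FPKM + 1) scale, but none passed the test over all genes. With limma 0 of 10 members passed an adjusted p of 0.05, where 0.18% of the 13908 tested genes did (those with a mean of at least 1 FPKM). At an unadjusted limma p under 0.05, 1 member was higher (Fpr2), where 7.41% of all tested genes were. In either direction 2466 of the 13908 tested genes had such a p, the background for the counts given for lists. All 10 members had positive log2 changes, where 6147 of the 13908 tested genes did. The median was 1.38 against −0.03 over all tested genes. The 3 irradiated libraries lay above the 3 control libraries in 1 of 10 members (Fpr2), where they did in 9.91% of tested genes, a share near that of the members. All 10 members passed the minimum level, Ly6g only through the irradiated libraries since its control mean was under 1 FPKM. A higher irradiated mean was thus fixed for Ly6g. With no minimum level 0 of 10 passed in limma, and 0 of 10 had an unadjusted p under 0.05.

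**Figure D1:**
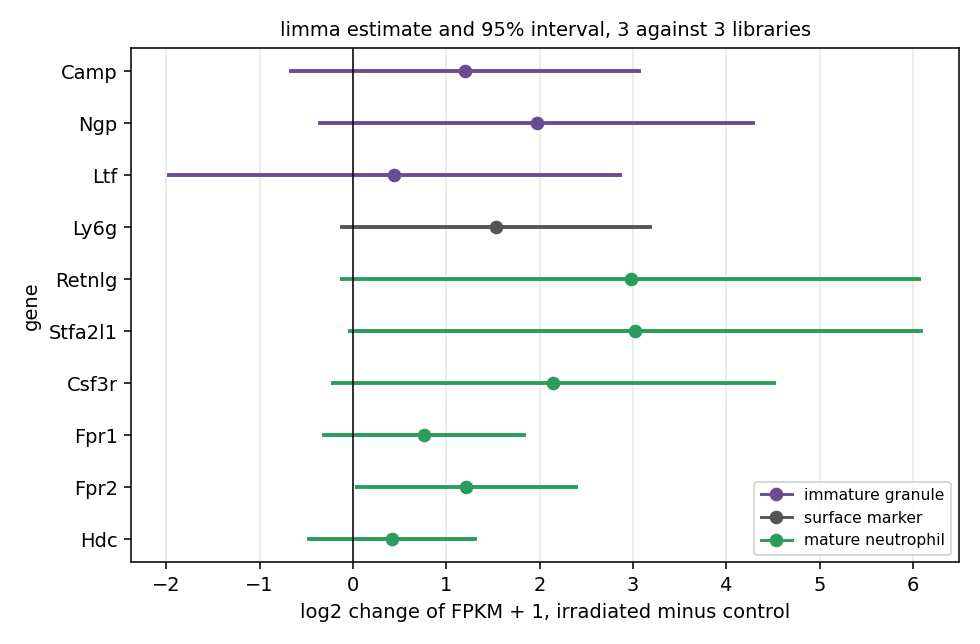
Estimated log2 change of FPKM + 1 (irradiated minus control) for each gene, with its 95% interval from limma over 3 against 3 libraries, coloured by role. The estimates run from 0.42 (Hdc) to 3.03 (Stfa2l1), and the interval of 1 gene, Fpr2, lies wholly above 0.

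The irradiated libraries differed among themselves. Irradiated 2 exceeded all controls in 9 of 10 members and irradiated 3 in 7 of 10, while the levels of irradiated 1 were inside the control range for 9 of 10. The same shares over all tested genes were not computed, so these counts only describe the members. In whole tissue, more neutrophils and more RNA per neutrophil cannot be told apart. Without irradiated 1, 1 of 10 members passed in limma, Stfa2l1 (log2 change 4.38, adjusted p = 0.0447; adjusted p between 0.0447 and 0.640 over all alternatives). In the fit without irradiated 1, 100 of the 13908 tested genes were called, 74 of them higher. Without irradiated 2 no member passed. The changes of 5 mature or surface genes moved with the same 2 libraries. Without irradiated 2 and without irradiated 1 respectively, the log2 change was 1.87 and 4.03 for Retnlg, 2.30 and 4.38 for Stfa2l1, 0.24 and 1.08 for Fpr1, 0.68 and 1.70 for Fpr2, and 0.75 and 2.19 for Ly6g.

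Among the granule genes, Camp had 2.79, 0.426 and 10.7 FPKM across control 1 to 3, against 5.52, 11.2 and 8.63 FPKM across irradiated 1 to 3. Control 3 thus lay above 2 of the 3 irradiated libraries, and the groups overlapped (log2 change 1.20 ± 0.76 (SE), limma adjusted p = 0.458). The change of Camp was 0.46 without control 2 and 1.98 without control 3. Ngp had 4.30, 0.774 and 15.3 FPKM across the controls, against 10.3, 42.3 and 17.8 FPKM across the irradiated libraries. Irradiated 2 and 3 were higher than each control, irradiated 1 was not, and the change was 1.97 ± 0.93 (adjusted p = 0.343; 1.17 without control 2 and 2.77 without control 3). Ltf had another order, with 3.27, 52.9 and 6.01 FPKM across the controls against 18.0, 12.8 and 14.5 FPKM across the irradiated libraries. Its highest level was in control 2, the library in which Camp and Ngp were lowest, and its change was 0.44 ± 0.96 (adjusted p = 0.854). The change of Ltf turned to −0.29 without control 1 and was 0.07 without control 3. Without control 2 it was 1.54 ± 0.25 (limma adjusted p = 0.162). In control 2 the mean depth was 2.88 per base of Camp and 5.24 per base of Ngp, the lowest depths among the granule genes.

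The 3 granule genes lie near each other on chromosome 9 in the coordinates of the files (GRCm39, counted from 1), Camp at 109676445 to 109678524 on the minus strand, Ngp at 110248876 to 110252080 and Ltf at 110848360 to 110871834, both on the plus strand. Each value is for the whole gene, and no other named gene of the files overlaps the 3.

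Among the secreted proteins of mature cells, Retnlg had 10.8, 5.85 and 36.2 FPKM across control 1 to 3, against 25.2, 524 and 105 FPKM across irradiated 1 to 3. Irradiated 2 was 14.5 times and irradiated 3 was 2.91 times the highest control, while irradiated 1 lay below control 3 (log2 change 2.97 ± 1.23, limma adjusted p = 0.295). Stfa2l1 had 0.765, 0.413 and 2.91 FPKM across the controls, against 1.65, 46.6 and 40.8 FPKM across the irradiated libraries. Here irradiated 2 and 3 were alike, 16.0 and 14.0 times the highest control, and irradiated 1 again lay below control 3 (3.03 ± 1.22, adjusted p = 0.286). Stfa2l1 belongs to a cluster of near-identical stefin genes, and its reads may be shared with them. The related Stfa2 and Stfa3 were listed at 0 in the controls and in irradiated 1, so the assignment of reads within the cluster is uncertain. Retnlg lies at chromosome 16, 48692971 to 48694861, and Stfa2l1 at chromosome 16, 35977181 to 35982318.

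Of the receptors, Csf3r had 9.16, 3.82 and 18.4 FPKM across control 1 to 3, against 10.9, 84.2 and 80.6 FPKM across irradiated 1 to 3. Irradiated 2 and 3 were 4.57 and 4.37 times the highest control, and irradiated 1 was within the controls (log2 change 2.15 ± 0.94, limma adjusted p = 0.316). Csf3r (chromosome 4, 125917241 to 125938768) overlaps a predicted gene on the opposite strand, and the strand setting is not given in the sources used here. Fpr1 had 4.59, 7.21 and 6.97 FPKM across the controls, against 6.73, 23.9 and 8.21 FPKM across the irradiated libraries. It was clearly apart from the controls in irradiated 2 alone, at 3.32 times the highest control (0.76 ± 0.44, adjusted p = 0.420). Fpr2 had 4.34, 5.59 and 6.10 FPKM across the controls, against 6.46, 29.8 and 12.6 FPKM across the irradiated libraries. Fpr2 was the member whose groups did not overlap, although irradiated 1 was only 1.06 times the highest control (1.22 ± 0.49, adjusted p = 0.268). An exact two-sided permutation test over the 3 against 3 libraries gave p = 0.1 for Fpr2, the smallest it can give. Fpr1 and Fpr2 are neighbouring paralogs on chromosome 17 (18096733 to 18104201 and 18108086 to 18114214) and may share reads.

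Hdc stood apart from the other mature genes. It had 29.0, 30.9 and 27.7 FPKM across control 1 to 3, against 29.9, 75.0 and 26.9 FPKM across irradiated 1 to 3. Irradiated 3, in which Retnlg, Stfa2l1 and Csf3r were above all controls, had the lowest Hdc of the 6 libraries. Irradiated 2 alone lay outside 26.9 to 30.9 FPKM (log2 change 0.42 ± 0.37, limma adjusted p = 0.598; −0.04 without irradiated 2). Mast cell and basophil genes, the other known sources of Hdc, were mostly low. The 8 mast cell markers summed to 2.68 to 5.40 FPKM across the controls, against 2.10 to 4.63 FPKM in the irradiated libraries, and 0 of 8 reached the minimum. Of 5 basophil markers 1 reached it, Gata2, a transcription factor that endothelium also expresses, at 19.7 to 36.4 FPKM over the 6 libraries. The defining basophil protease gene Mcpt8, named after its values were seen, was under 1 FPKM in each library. Hdc lies at chromosome 2, 126435579 to 126465942.

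Ly6g had 0.500, 0.122 and 0.660 FPKM across control 1 to 3, against 0.646, 11.1 and 2.42 FPKM across irradiated 1 to 3. Irradiated 2 and 3 were 16.8 and 3.67 times the highest control, and irradiated 1 lay just below control 3 (log2 change 1.54 ± 0.69, limma adjusted p = 0.309). The mean depth over Ly6g was 0.808 per base in control 2 and 111 per base in irradiated 2, so the control values rest on few reads. At these low levels the log2(FPKM + 1) scale understates the difference, and with a pseudocount of 0.1 the change was 2.57 (adjusted p = 0.251). Ly6g (chromosome 15, 75027110 to 75030977) belongs to a family of similar genes that could share its reads.

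**Figure D2:**
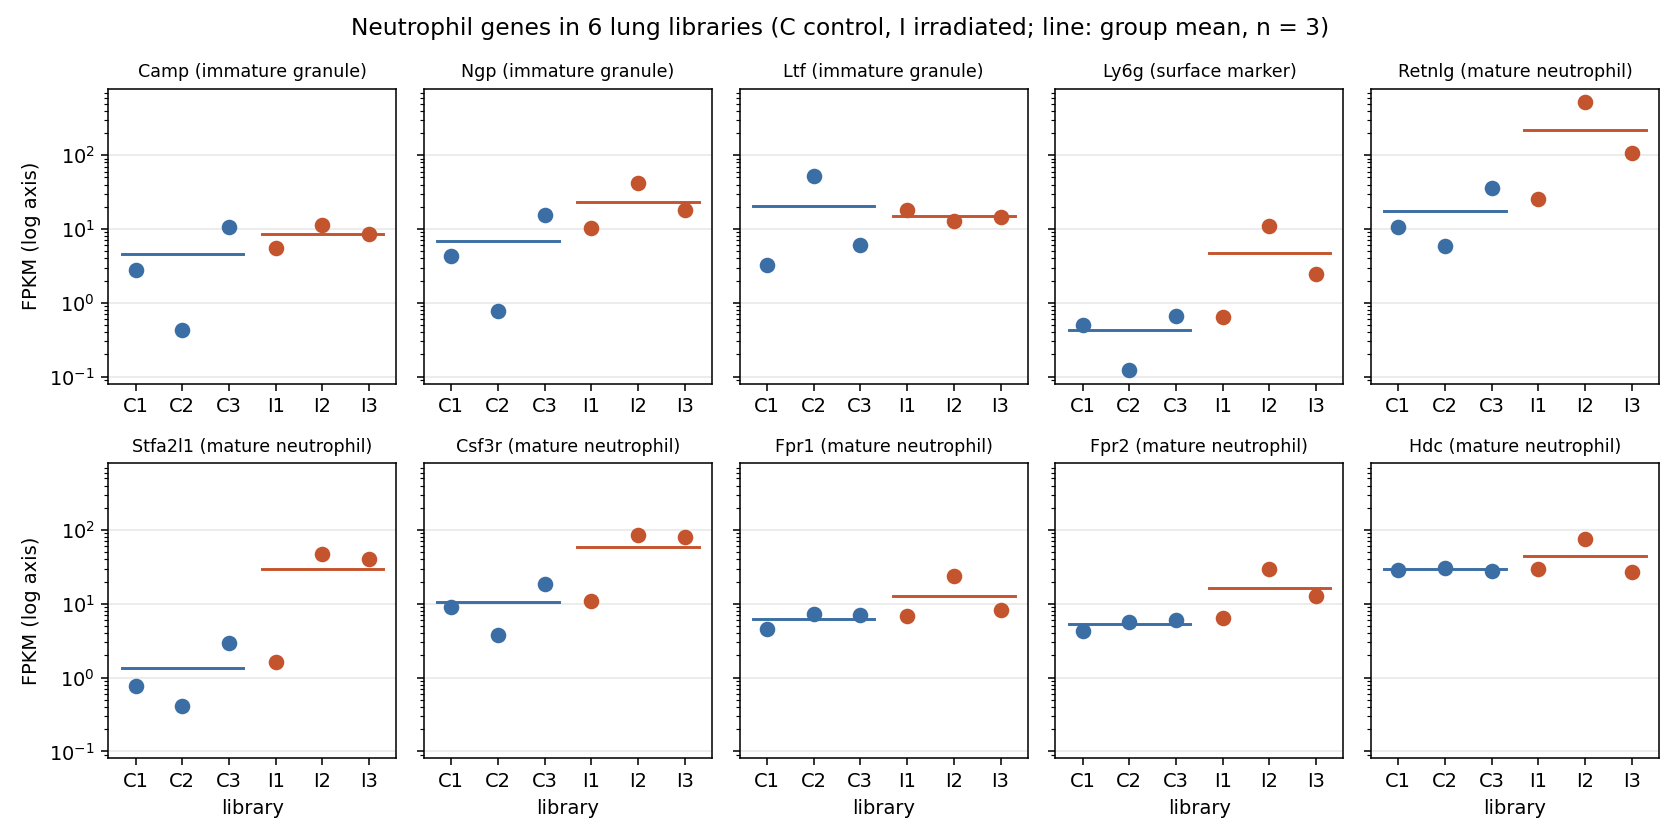
FPKM on a log axis for each of the 10 genes in control 1 to 3 (C1 to C3) and irradiated 1 to 3 (I1 to I3), with a line at each group's mean of 3 libraries. Irradiated 2 is the highest library in 9 of 10 panels and control 2 in the remaining one, Ltf.

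By level per length, the controls were led by Hdc (29.2 ± 1.64 FPKM, SD, n = 3), Ltf (20.7 ± 27.9) and Retnlg (17.6 ± 16.3), followed by Csf3r (10.5 ± 7.40), Ngp (6.79 ± 7.58), Fpr1 (6.26 ± 1.45), Fpr2 (5.34 ± 0.904), Camp (4.63 ± 5.37), Stfa2l1 (1.36 ± 1.35) and Ly6g (0.428 ± 0.276). In the irradiated libraries Retnlg led (218 ± 268 FPKM), ahead of Csf3r (58.5 ± 41.3), Hdc (43.9 ± 27.0), Stfa2l1 (29.7 ± 24.5), Ngp (23.5 ± 16.7), Fpr2 (16.3 ± 12.1), Ltf (15.1 ± 2.66), Fpr1 (12.95 ± 9.52), Camp (8.45 ± 2.84) and Ly6g (4.71 ± 5.58). Neighbours in either order differed by less than the larger of their SDs. The SD of Hdc in the controls was the narrowest relative to its mean.

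The comparison of immature with mature genes asks whether the libraries with more neutrophil RNA also held more precursor RNA. Relative to the control mean, the 6 mature genes averaged 0.31, 3.03 and 1.93 in irradiated 1 to 3 on the log2 scale, and −0.19, −0.39 and 0.58 in control 1 to 3. Camp, Ngp and Ltf averaged 0.83, 1.62 and 1.16 in irradiated 1 to 3, and −0.51, −0.29 and 0.81 in control 1 to 3. In irradiated 2 and 3 the mature genes thus stood further above the controls than the granule genes did, and in irradiated 1 the order was the other way round. Within a library, the mean of the mature genes minus that of the granule genes was 0.78, 0.35 and 0.23 in control 1 to 3 (0.45 ± 0.29, SD) and −0.07, 1.87 and 1.22 in irradiated 1 to 3 (1.01 ± 0.99). The groups overlapped, with irradiated 1 below every control, and the difference between the groups (0.55) was smaller than the SD of the irradiated libraries. It was 0.12 without irradiated 2. Without irradiated 1 it was 1.09, and both remaining irradiated libraries then lay above every control.

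**Figure D3:**
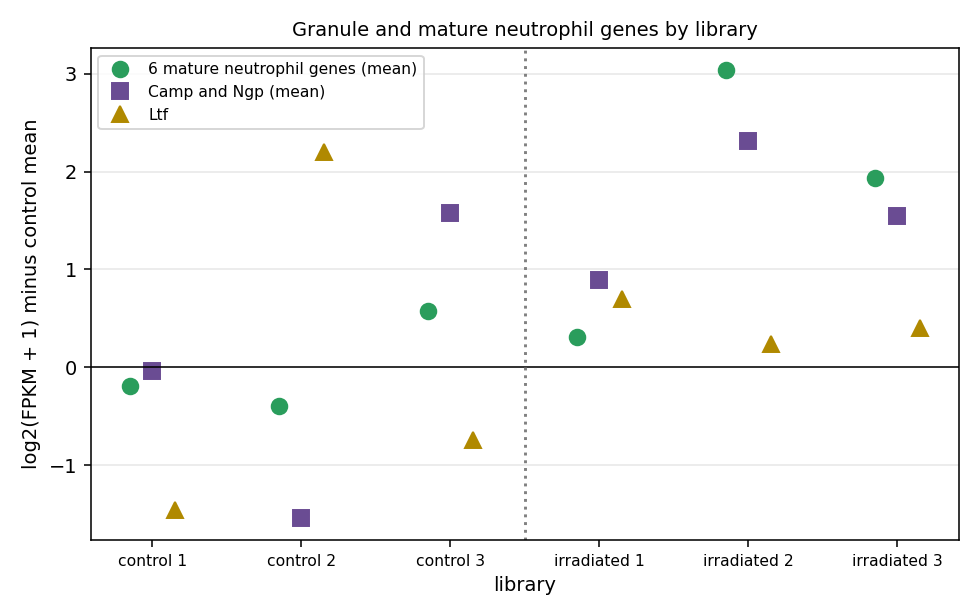
Log2(FPKM + 1) minus the control mean in each of the 6 libraries, for the mean of the 6 mature neutrophil genes, the mean of Camp and Ngp, and Ltf. The mature genes reach 3.03 in irradiated 2 and 1.93 in irradiated 3, Camp and Ngp vary by more than 3 log2 units within the controls, and Ltf follows neither.

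This comparison leaned on Ltf. With Camp and Ngp alone as granule genes, a choice made after the values were seen, mature minus granule was 0.76, 2.05 and −0.10 across control 1 to 3, against 0.31, 1.62 and 1.29 across irradiated 1 to 3, and the difference between the groups was 0.17. Control 2, in which 6 of 10 members were lowest, then had the highest value of the 6 libraries. Single pairs were compared as ratios of FPKM. Retnlg was 2.51, 7.56 and 2.37 times Ngp in control 1 to 3 and 2.44, 12.4 and 5.91 times Ngp in irradiated 1 to 3. Csf3r was 3.28, 8.97 and 1.73 times Camp in the controls and 1.97, 7.52 and 9.33 times Camp in the irradiated libraries. Stfa2l1 separated irradiated 2 and 3 from the rest, at 4.16 and 4.72 times Camp against 0.272 to 0.970 times in the controls and 0.299 times in irradiated 1. Other pairs did not lean this way. Csf3r was 2.13, 4.93 and 1.20 times Ngp in the controls and 1.05, 1.99 and 4.51 times Ngp in the irradiated libraries, with control 2 the highest. On the log2(FPKM + 1) scale Fpr2 minus Camp averaged 0.66 ± 1.47 in the controls and 0.68 ± 0.59 in the irradiated libraries, and Ly6g minus Ngp averaged −1.93 ± 1.32 and −2.36 ± 0.48 (SD, n = 3).

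The granule genes also differed among themselves. Ngp was 1.54, 1.82 and 1.43 times Camp in control 1 to 3 and 1.87, 3.77 and 2.07 times Camp in irradiated 1 to 3, so that the irradiated libraries lay above the controls in this ratio, irradiated 1 by a small margin. Among the receptors the same held for Fpr2 relative to Fpr1, at 0.945, 0.775 and 0.875 times in the controls and 0.959, 1.25 and 1.54 times in the irradiated libraries. Both ratios were noticed after the values were seen and were not tested.

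Ltf was set beside genes of airway secretory epithelium and glands, which were listed after its values were seen. Bpifa1, a secreted protein of the upper airways, had 1.14, 1028 and 2.33 FPKM across control 1 to 3, against 134, 2.38 and 98.8 FPKM across irradiated 1 to 3. Scgb3a1, a secretoglobin of the large airways, had 13.9, 1087 and 6.42 FPKM across the controls, against 105, 3.72 and 281 FPKM across the irradiated libraries. Both were thus highest in control 2, where Ltf was highest, as were 5 of the 8 listed genes in all. Of the others, Lyz1 (361 FPKM) and Dmbt1 (0.199 FPKM) were highest in irradiated 1 and Pigr (29.5 FPKM) in irradiated 3. Scgb3a1, Lyz1, Dmbt1 and Pigr were named after their values were seen. Over the 8 listed genes the summed level was 2810 FPKM in control 2 and 171 to 674 FPKM in the other 5 libraries. The 6 listed genes of fat and heart muscle summed to 376 FPKM in control 2 and to 17.2 to 152 FPKM in the others. Their part in the level of Ltf was not tested. In irradiated 2, with 2.38 FPKM of Bpifa1 and 3.72 FPKM of Scgb3a1, Ltf was at 12.8 FPKM, above control 1 and control 3.

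**Figure D4:**
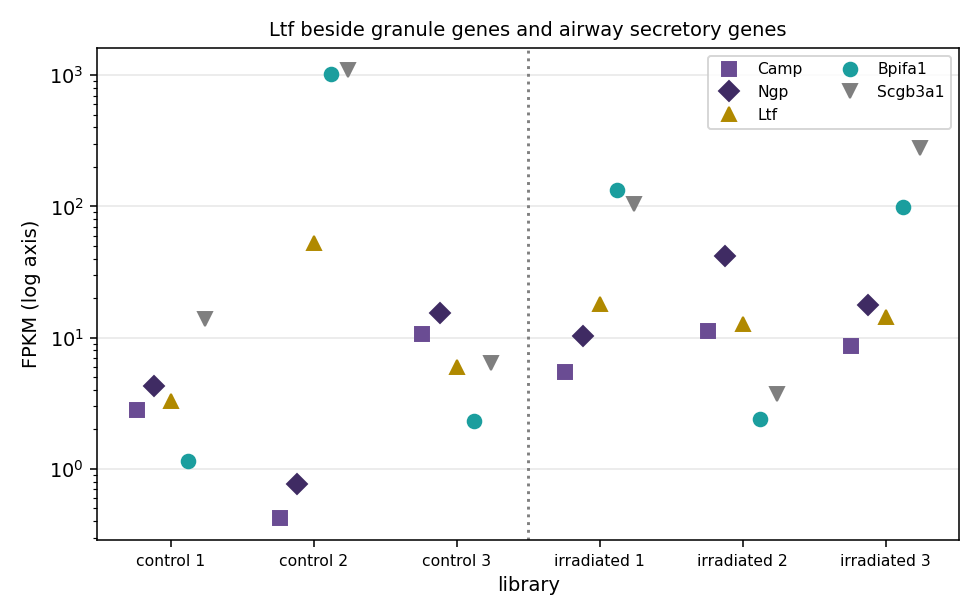
FPKM on a log axis of Camp, Ngp, Ltf and the airway secretory genes Bpifa1 and Scgb3a1 in each library. In control 2 Ltf (52.9), Bpifa1 (1028) and Scgb3a1 (1087) are at their highest and Camp (0.426) and Ngp (0.774) at their lowest.

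Genes of the other granule classes were described by lists. The primary granule genes Mpo, Elane, Prtn3, Ctsg, Ms4a3 and Prss57, which are transcribed in the earliest committed precursors, were all below the minimum level. They summed to 0.800 to 2.07 FPKM over the controls, against 1.78 to 3.31 FPKM over the irradiated libraries. Of 14 secondary granule genes, 12 were tested (3 of them members), 11 had positive changes and the median log2 change was 1.09. Lcn2, an iron-chelating lipocalin of secondary granules that lung epithelium also makes, rose from 84.7 ± 19.8 to 374 ± 75.1 FPKM (2.13 ± 0.21, limma adjusted p = 0.0298) and was the 1 gene called among all lists. Its call ended without control 1 (limma adjusted p = 0.203), control 2 (0.0677), control 3 (0.137) or irradiated 2 (0.0642), and with no minimum level (0.149). Without irradiated 1 the lists held 8 called genes (Asprv1, Ccr2, F13a1, Lcn2, Marco, Mmp25, Stfa1 and Wfdc17), named after their values were seen. Over all 13908 tested genes 100 were called in that fit. Ccr2 and F13a1 are monocyte markers. Marco, an alveolar macrophage marker, was lower, at 0.418 and 0.946 FPKM in irradiated 2 and 3 against 4.81 to 8.24 FPKM in the controls. Mmp25 and Stfa1 reached the minimum level only through the irradiated libraries. Cd177, a surface protein of neutrophils stored in these granules, was at 2.54 ± 1.43 against 30.3 ± 12.7 FPKM (3.12 ± 0.40, adjusted p = 0.0565), and was called with a minimum of 5 FPKM (0.0495) and without control 2 and irradiated 2 (0.0203). Lcn2 and Cd177 differ from the members in irradiated 1, where they were at 452 and 33.8 FPKM, far above the highest controls (107 and 4.19 FPKM), while 9 of 10 members were within the controls there. The macrophage lectin Chil3 (159 ± 28.0 against 312 ± 94.5 FPKM, adjusted p = 0.132) and the oxidase subunit Cybb (14.3 ± 0.333 against 17.1 ± 1.28 FPKM, adjusted p = 0.233), both shared with macrophages, were not called.

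Of 6 tertiary granule genes 5 were tested, 5 had positive changes with a median of 1.10, and 0 were called (4 at an unadjusted limma p under 0.05). Cfp, the complement regulator properdin, was at 8.91 ± 0.468 against 15.6 ± 3.35 FPKM (adjusted p = 0.0971), and the protease Mmp25 at 0.429 ± 0.113 against 2.17 ± 1.04 FPKM (adjusted p = 0.116). Mmp25 reached the minimum level only through the irradiated libraries. Slpi, a protease inhibitor, was at 25.8 ± 7.71 against 54.3 ± 14.5 FPKM, and the metalloprotease Adam8 at 10.9 ± 8.33 against 30.9 ± 8.90 FPKM. Airway epithelium makes Slpi and macrophages make Cfp and Adam8, so these genes are not specific to neutrophils.

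Late neutrophil genes outside the members followed the same libraries. Of 21 tested, 21 had positive changes, with a median of 1.66, and 20 were highest in irradiated 2. Of the 21, 3 reached the minimum only through the irradiated libraries (Cxcr1, Stfa1 and Mrgpra2b, with control means of 0.361, 0.241 and 0.237 FPKM), so that a higher irradiated mean was fixed for them. In irradiated 3, 20 of 21 lay above all controls, and in irradiated 1, 7 of 21 did. The shares of all tested genes that did so in either library were not computed. With the members the list had 0 of 27 called in limma, with 9 at an unadjusted p under 0.05. Over all tested genes 7.41% were higher at that p. The 9 include Cxcr1 and Stfa1, whose direction was fixed by the minimum level, so the count cannot be compared evenly with that share. Wfdc17, a small secreted protein of myeloid cells, was at 7.48 ± 2.61 against 70.4 ± 48.5 FPKM (adjusted p = 0.186), Wfdc21 at 4.49 ± 1.25 against 25.7 ± 20.2 FPKM (0.140), the receptor of platelet-activating factor Ptafr at 1.49 ± 0.311 against 4.26 ± 1.81 FPKM (0.125), and the chemokine receptor Cxcr1 at 0.361 ± 0.171 against 1.89 ± 1.28 FPKM (0.208).

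Signals that attract or produce neutrophils were divided, with 8 of 16 genes higher and 8 lower by group mean. Of these 10 were tested, 3 had positive and 7 negative changes, the median was −0.31 and 0 were called (4 at an unadjusted limma p under 0.05). Csf3, the ligand of Csf3r, was between 0.00131 and 0.0848 FPKM in the 6 libraries and was not tested. Of the 6 untested genes 5 were higher by group mean. Cxcl5, a neutrophil chemokine, was at 0.152 ± 0.0857 against 0.667 ± 0.229 FPKM and higher in each irradiated library than in any control. The neutrophil chemokines Cxcl1 (log2 change 0.35, limma adjusted p = 0.439) and Cxcl2 (0.86, adjusted p = 0.639) were positive but not called. Csf3 and these 3 chemokines, like Cebpe below and Stfa1, Stfa2, Stfa3 and Mrgpra2b above, were named after their values were seen. Cxcl12, the chemokine that holds neutrophils in the marrow, was at 35.4 ± 4.91 against 23.4 ± 6.88 FPKM (adjusted p = 0.221), and Ccl3 at 3.68 ± 3.15 against 0.793 ± 0.401 FPKM (0.232). Of 9 transcription factors of the lineage 7 were tested and 0 called (3 at an unadjusted p under 0.05). Their changes were positive in 6 and negative in 1, Cebpa. Spi1, which encodes PU.1 and is expressed across myeloid cells, was at 14.9 ± 0.575 against 32.0 ± 13.6 FPKM (adjusted p = 0.171). Cebpa was lower, at 46.6 ± 7.53 against 34.2 ± 3.14 FPKM (log2 change −0.43, limma adjusted p = 0.185). Cebpe, the C/EBP factor of the granule stage, was between 0.0271 and 0.262 FPKM in the 6 libraries and was not tested.

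The genes most alike were found by the root mean square difference between centred log2(FPKM + 1) profiles over the 6 libraries, among the tested genes that are not members. Genes with predicted names (Gm or LOC with a number, or Rik) were left out of this search. To the mean of the 6 mature genes the nearest were the myeloid inhibitory receptors Cd300lf (0.18), Siglece (0.19) and Cd33 (0.22), the C-type lectin Clec4e (0.21) and the protease Asprv1 (0.22). Cd300lf was at 5.07, 4.95 and 9.23 FPKM across control 1 to 3, against 8.82, 44.9 and 22.6 FPKM across irradiated 1 to 3. To the mean of the 3 granule genes the nearest were Cebpd (0.18), Dusp1 (0.19), Rgcc (0.23), Lilrb4a (0.24) and Gsdme (0.24). The granule members themselves were further from their own mean than these, at 0.61 (Camp), 0.83 (Ngp) and 1.36 (Ltf), so that this mean describes none of the 3 closely.

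Blood genes moved with the members in irradiated 2. The 8 red cell genes summed to 6350 FPKM there. Their sum was 1374 to 1740 FPKM in the controls, 1476 FPKM in irradiated 1 and 1636 FPKM in irradiated 3. None of the 7 tested was called in limma, and 0 had an unadjusted p under 0.05. The globin gene Hbb-bs in irradiated 2 was 3.92 times the highest of the other libraries, compared with the 14.5 times of Retnlg over the highest control. In irradiated 3 the red cell list had a median of −0.08 relative to the controls, and the late neutrophil list had a median of 1.75. In irradiated 2 these medians were 2.12 and 3.11. Platelet genes had negative changes in 9 of 9, with a median of −0.88 and 0 called (2 at an unadjusted p under 0.05), and were lowest in irradiated 1. The part of retained blood in the neutrophil values of irradiated 2 or irradiated 3 was not tested.

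Monocyte genes, which mark another source of Fpr1, Fpr2 and Csf3r, were measured by 12 markers, of which 12 were tested, 9 had positive changes, 0 were called and 5 had an unadjusted limma p under 0.05. Their summed level was 227 to 313 FPKM over the controls, against 299 to 389 FPKM over the irradiated libraries. Ace, named after its values were seen, alone was at 133 to 172 FPKM and 149 to 214 FPKM respectively, so the sums lean on 1 gene. The list median relative to the controls was 0.18, 0.52 and 0.34 in irradiated 1 to 3. F13a1, a clotting factor subunit of classical monocytes, was at 3.48 ± 0.321 against 9.22 ± 4.13 FPKM (adjusted p = 0.140), and Ms4a6c at 7.49 ± 1.01 against 12.1 ± 1.54 FPKM (0.0962). Of 6 eosinophil markers 1 was tested, and the list summed to 3.26 to 5.27 FPKM over the 6 libraries. Alveolar macrophage markers had a median of 0.04, with 5 of 8 positive and 0 called (4 at an unadjusted p under 0.05).

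**Figure D5:**
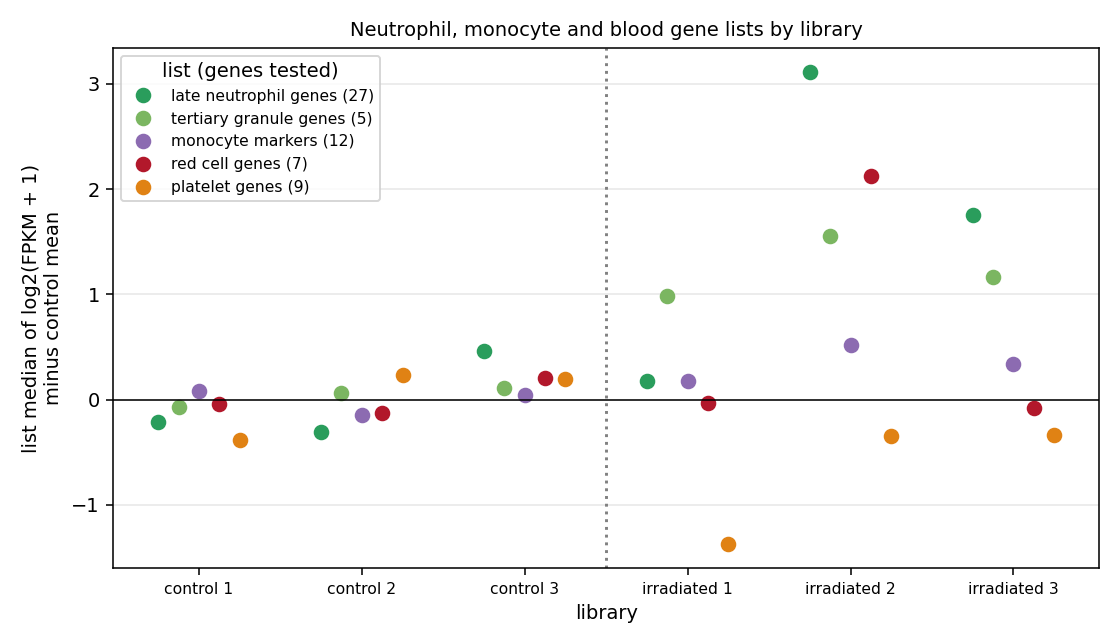
Median log2(FPKM + 1) minus the control mean, per library, of the tested genes in lists of late neutrophil (members included), tertiary granule, monocyte, red cell and platelet genes. In irradiated 2 the late neutrophil and red cell lists are both high (3.11 and 2.12), and in irradiated 3 the late neutrophil list is high (1.75) with red cell genes near the controls (−0.08).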

How the data were processed

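Whole lung RNA of 6 libraries was measured by polyA sequencing. Of tools, the submitters' processing notes list STAR 2.7.6a, fastp and DESeq2, and of builds GRCm39, without roles. Which tool made the tables is not given in the sources used here. The deposited tables, per the file headers, give coverage, FPKM and TPM per gene. The FPKM deposited by the authors were analysed, summed per gene ID over named rows. The deposited coverage signal (mean depth per base) served only to estimate depth, and TPM were left out because the column sums to 1.98e+06 to 1.99e+06 per library. Counting intervals need counts and are left out.

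The planned test for the members was limma 3.58.1 (R 4.3.3) with mean-variance trend and robust variance on log2(FPKM + 1), for genes averaging 1 FPKM or more, with Benjamini-Hochberg adjustment over 13908 genes, and with adjusted p under 0.05 called. On simulated data of 13908 genes (3 against 3 libraries, 10 simulations) it recovered 71.0% of genes changed 2-fold and 95.2% of those changed 4-fold, with 5.39% of calls false. The changes were placed only in genes of higher mean level, with normal noise of each gene's own spread, equal in both groups. These shares are averages over such genes. They do not give the chance of a call for the members, whose SEs ran from 0.37 (Hdc) to 1.23 (Retnlg). A log2 change is irradiated minus control with its SE, and levels are mean ± SD, n = 3. Single genes were tested by exact permutation (scipy 1.17.1).

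Members and lists were chosen with earlier results of these data known. Lists of 143 symbols, 141 of them in the files, gave up to 4 genes named by the smallest p per list, and others are said to have been named after their values were seen. Promoters are RefSeq, GRCm38.p6. Other scalings, filters, pseudocounts, variance settings, a replicate block and leaving out libraries were alternatives. Protein sequences were not used here.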

Additional observations from a re-analysis of the deposited data

How the results depend on the processing

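Of 149 member log2 changes recomputed under the alternatives, 146 kept their direction and their side of the threshold. Stfa2l1 passed without irradiated 1, and 2 changed sign: Ltf (−0.29 without control 1, up to 1.54 when leaving out control 2) and Hdc (−0.040 without irradiated 2, up to 0.68 when leaving out irradiated 3). The number of members called was 0 under each alternative that kept all libraries and 0 to 1 when libraries were left out in turn, and 0 without control 2 and irradiated 2 together, an alternative chosen after seeing the data.

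The count of called genes among the lists, outside the members, was 1 as reported. It was 0 with no minimum, 2 with a minimum of 5 FPKM, 2 without control 2 and irradiated 2, and 0 to 8 when leaving out single libraries. Over all genes 25 were called (9 higher, 16 lower). The count was 0 with no minimum, 38 with a minimum of 5 FPKM, 13 with a common sum (7 higher, 6 lower), 11 with median-ratio scaling, 12 with upper-quartile scaling, 9 without control 2 and irradiated 2 (9 higher), and 0 to 116 when leaving out single libraries. The cause was not tested, beyond the smaller number of samples or the other set of genes.

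The labels number the replicates but do not say whether same-numbered libraries were paired, and the main fit did not pair them. Same-numbered libraries deviated from their group means in opposite directions (correlations of −0.17, −0.54 and −0.28 across genes). Deviations from a mean of 3 libraries depend on each other, so these correlations cannot decide whether the libraries were paired. With the replicate number as a block 0 members, 0 listed genes and 0 genes in all were called, and Lcn2 had a limma adjusted p of 0.282. The mature minus granule difference of 0.55 ranged from 0.12 to 1.09 when leaving out single libraries, was 0.82 without Hdc, 0.30 without Stfa2l1, 0.06 with medians over genes, 0.17 without Ltf and 0.07 without control 2 and irradiated 2. Each of these values was within 1 pooled SD between libraries (0.73) of the value as reported, but 1.09 (without irradiated 1) and 0.82 are themselves larger than that SD. Depth limits Ly6g, Stfa2l1, Camp and Ngp most in control 2 (0.808, 2.80, 2.88 and 5.24 per base).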
